A study of Mus musculus with 4 samples.

Results

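Cell surface peptidases trim or cut small peptides outside the cell, and so set how long hormones, chemokines and matrix fragments stay active. They were followed here through 7 mouse genes, Enpep, Anpep, Fap, Dpp4, Mme, Ace and Cpe. All probe sets that the platform annotation pairs with one of these symbols were taken, which gave 11 probe sets of 22626 outside the array controls, and 7 genes of 12393 with a probe set of 1 symbol. Enpep, Anpep and Fap have 1 probe set each, and Dpp4, Mme, Ace and Cpe have 2 each. The family was chosen by the Wnt3A minus control differences of Enpep and Fap on these same arrays, so the differences of its members are given as descriptions and no p-value is printed for them.

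The cells were C2C12, an established mouse myoblast line that leaves the cell cycle reversibly (G0) when it is denied attachment. All 4 cultures were grown in medium with fetal calf serum and then held for 48 hours in semi-solid methyl cellulose. The 2 control arrays are labelled as untreated, and the 2 Wnt3A arrays come from cells given purified Wnt3A at 50 ng/ml, a secreted protein that stabilises β-catenin. The treatment text is the same for all 4 arrays and mentions Wnt3A, so groups here follow the shorter treatment label. The labels call the arrays biological replicates without saying that cultures were started apart, so errors measure the spread between these arrays, and 2 arrays a group limit their precision. Signals are on a log2 scale, a difference is Wnt3A minus control, and n = 2 for every mean ± SD.

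Enpep (aminopeptidase A) and Anpep (aminopeptidase N, CD13) are zinc aminopeptidases of the plasma membrane that take residues from the front end of peptides. Enpep prefers acidic residues and converts angiotensin II to angiotensin III. Fap and Dpp4 (CD26) are serine peptidases that cut after proline, Fap being known from activated fibroblasts and Dpp4 from the inactivation of incretins and chemokines. Mme (neprilysin, CD10) is a membrane endopeptidase, Ace removes dipeptides from the back end of angiotensin I and bradykinin, and Cpe removes basic residues from prohormones in secretory granules, so that it works inside the secretory route more than at the surface.

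Upstream sequence from RefSeq (GRCm38.p6) was at hand for 5 of the 7 genes, in 8 windows of 250 bases before a transcript start. Fap and Cpe had no window, so Enpep could not be compared with them. Those of the aminopeptidases are shown because Enpep was far lower with Wnt3A while the groups of its relative Anpep overlapped. Capitals mark CTTTG, a loose form of the core of the motif bound by the LEF/TCF partners of β-catenin, or its reverse complement CAAAG. Both are on the minus strand and are written 5′ to 3′ toward the start, Enpep from chr3:129332750-129332999 and Anpep from chr7:79848211-79848460.
Enpep: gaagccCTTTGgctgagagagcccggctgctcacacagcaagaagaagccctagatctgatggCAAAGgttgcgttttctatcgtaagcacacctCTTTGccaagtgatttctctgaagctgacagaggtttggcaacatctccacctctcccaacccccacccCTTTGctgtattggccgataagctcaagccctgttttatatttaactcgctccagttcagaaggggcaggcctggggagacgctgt
Anpep: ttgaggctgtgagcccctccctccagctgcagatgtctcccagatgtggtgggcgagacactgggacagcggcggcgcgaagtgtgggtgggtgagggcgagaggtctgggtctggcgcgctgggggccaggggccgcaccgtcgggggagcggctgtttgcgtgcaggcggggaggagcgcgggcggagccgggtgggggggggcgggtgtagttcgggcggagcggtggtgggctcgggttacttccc

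The Enpep window held 4 matches to CTTTG on either strand and the Anpep window 0. At least 1 match was found in 48.6% of the 32851 windows of this length from the same source. No share is set beside the 4 matches of Enpep, since that cut-off would come from the Enpep window itself. The longer form CTTTGA, which contains CTTTG, was not among the letters of either window and was in 13.8% of all windows. GC content was 52.4% in the Enpep window, equal to the median of all windows, and 72.8% in that of Anpep. The GC box GGGCGG occurred 3 times upstream of Anpep and 0 times upstream of Enpep, against 32.7% of windows with any. The E-box CANNTG, bound by myogenic factors among others, occurred 3 times upstream of Anpep and 1 time upstream of Enpep, against 66.2% of windows with any. Of the other windows, the first of Mme and the second of Ace held 3 CTTTG each, 1 of them as CTTTGA. That of Dpp4 held 2, the second of Mme and the first of Ace 1 each, and the third of Mme 0. The Enpep count was thus 1 above that of windows of Mme, which was dim, and Ace. These are matches of letters, with no measurement of binding.

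Enpep was high in control cells and near the dim end of the array with Wnt3A. Its probe set 1448649_at read 7.26 and 5.72 on control replicates 1 and 2, and 2.33 and 1.75 on Wnt3A replicates 1 and 2. Both Wnt3A arrays were lower than both controls, and the closest pair of arrays from the opposite groups still differed by -3.39. The control mean was 6.49 ± 1.09 and the Wnt3A mean 2.04 ± 0.41, a difference of -4.45 (SE 0.57 in limma), or 21.9-fold. Ordered from the most negative difference, Enpep was number 2 of the 16969 probe sets tested. The limit for dim probe sets, below which the lowest 25% of probe set means lie, was 2.01. As the second Wnt3A array lay under it, the size of the Enpep difference depends on signals near the background. The control arrays were 1.54 apart, and leaving out control replicate 1 or 2 gave a difference of -3.68 or -5.22.

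Anpep, the other aminopeptidase, was well above the dim limit in both groups. Probe set 1421424_a_at read 7.10 and 6.57 in the controls, and 7.03 and 6.30 under Wnt3A. The groups overlapped, and replicate 2 was the lower array in each. The means were 6.83 ± 0.37 and 6.66 ± 0.52 (difference -0.17, SE 0.35). The 95% confidence interval of the fit ran from -1.10 to 0.75, and so takes in a level 2-fold lower with Wnt3A. Its sign turned to positive without control replicate 1, without Wnt3A replicate 2 and when arrays were scaled to their hybridization controls.

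**Figure D1:**
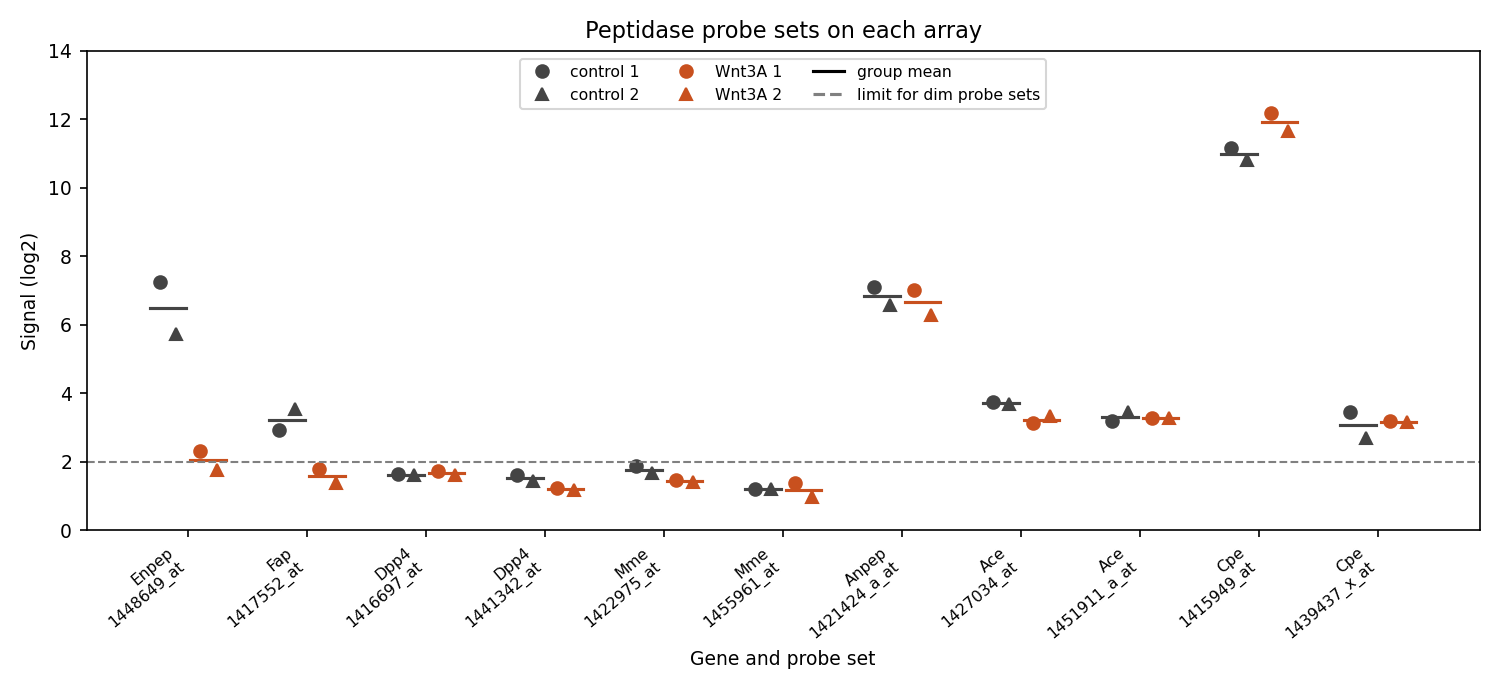
Log2 signal of each of the 11 probe sets of the 7 genes (horizontal axis) on each array, with circles for replicate 1, triangles for replicate 2, short bars for the group means and a dashed line at the limit for dim probe sets, 2.01. Enpep and Fap lie lower on both Wnt3A arrays, Cpe probe set 1415949_at lies higher, and all points of Dpp4 and Mme are under the line.

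Fap was low in control and lower with Wnt3A. Probe set 1417552_at read 2.93 and 3.54 in the controls, and 1.79 and 1.38 under Wnt3A. The groups did not overlap, with a gap of -1.14 between the nearest arrays. The means were 3.23 ± 0.43 and 1.58 ± 0.29 (difference -1.65, SE 0.28), or 3.13-fold. Both Wnt3A arrays lay under the limit for dim probe sets, so Fap was among the tested probe sets only through its control signal. With every signal under the limit raised to it, the difference was -1.22.

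Dpp4, the closest relative of Fap, gave no signal above the limit on any array. Its probe set 1416697_at read 1.64, 1.62, 1.73 and 1.62, and 1441342_at read 1.62, 1.44, 1.23 and 1.17, in the order control 1, control 2, Wnt3A 1 and Wnt3A 2. In RefSeq gene order (GRCm38.p6) Fap and Dpp4 are separated by 1 protein-coding gene, the proglucagon gene Gcg, whose GLP-1 product Dpp4 cleaves. Gcg read 1.25, 1.16, 1.15 and 1.09 on the same arrays, and Ifih1, on the other side of Fap, read 2.02, 2.0, 1.84 and 1.68. Of these 4 neighbours, picked after their values were seen, Fap was the gene with control signals clear of the limit.

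Mme was likewise dim. Probe set 1422975_at read 1.89 and 1.66 in the controls, and 1.46 and 1.42 under Wnt3A, and 1455961_at read 1.20 and 1.22 in the controls, and 1.37 and 0.97 under Wnt3A. The first was lower on both Wnt3A arrays, by -0.34, and the second overlapped. Differences of this size under the limit for dim signals are not interpretable as a change of the transcript.

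The 2 probe sets of Ace differed in whether their groups overlapped. Probe set 1427034_at read 3.75 and 3.68 in the controls, and 3.14 and 3.33 under Wnt3A. Its groups did not overlap, with means of 3.72 ± 0.05 and 3.24 ± 0.13 and a difference of -0.48 (SE 0.19). Probe set 1451911_a_at read 3.18 and 3.45 in the controls, and 3.29 and 3.27 under Wnt3A, where the groups overlapped and the difference was -0.03 (SE 0.20, 95% confidence interval -0.55 to 0.48). The difference of the first lay between -0.57 and -0.17 over the alternatives, most of which could not turn its sign.

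Cpe was the member that was higher with Wnt3A. Its bright probe set 1415949_at read 11.15 and 10.81 in the controls, and 12.17 and 11.66 under Wnt3A. Both Wnt3A arrays lay above both controls, by at least 0.51. The means were 10.98 ± 0.25 and 11.92 ± 0.36 (difference 0.94, SE 0.25), or 1.91-fold, just short of the 2-fold size used for the counts. Its other probe set, 1439437_x_at, read 3.45 and 2.69 in the controls, and 3.20 and 3.15 under Wnt3A, with overlapping groups and a difference of 0.11 (SE 0.30). In Affymetrix naming the suffix _x_at marks probe sets with probes that can also bind other transcripts. Scaled to hybridization controls, the difference of 1415949_at was 1.25. In RefSeq gene order Cpe lies next to Msmo1, a gene of sterol synthesis, which read 4.18 and 3.92 in the controls, and 5.96 and 5.67 under Wnt3A. This neighbour, too, was picked after its values were seen.

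In all, 7 of the 11 probe sets, from 5 genes, passed the filter on dim signals, and 4, those of Dpp4 and Mme, did not. Of the 7, 2 were at least 2-fold apart with groups that did not overlap, both lower with Wnt3A. Over all 16969 tested probe sets 3.03% met that rule, 1.70% lower and 1.34% higher. Without the size limit, 4 of the 7 had groups that did not overlap, against 33.0% of all tested probe sets. Lower without overlap were 3, against 17.9%, and 1 was higher, against 15.1%. A difference below 0 was found for 5 of the 7, against 50.6% of all. As the contrast chose the family, nothing is read from these shares. With no term but the group, limma gave 0 probe sets of any gene (0%) with an adjusted p under 0.05, and 839 (4.94%) with an unadjusted p under 0.05. With the replicate number as a block 83 (0.489%) passed the adjusted threshold. When arrays were scaled to their hybridization controls, the median difference of all tested probe sets moved from -0.004 to 0.312. Every probe set is shifted alike by this scaling. Hybridization controls averaged 7.09 and 7.25 on the control arrays, and 7.05 and 6.66 on Wnt3A replicates 1 and 2. With 2 arrays against 2, an exact permutation test of a single gene cannot give a two-sided p under 0.333.

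**Figure D2:**
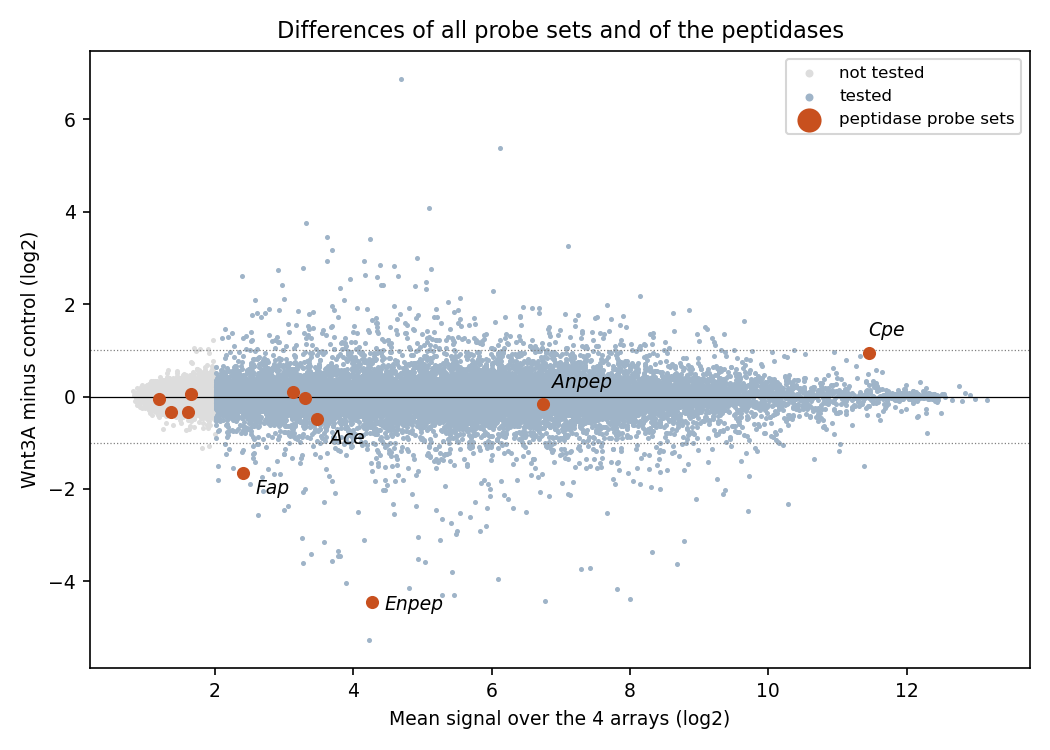
Difference, Wnt3A minus control (vertical axis, log2), against the mean signal over the 4 arrays (horizontal axis, log2) for all probe sets outside the array controls, with the 11 peptidase probe sets in orange and dotted lines at 2-fold. Enpep, at -4.45, lies near the lower edge of the cloud, and Cpe, at 0.94, lies just under the upper dotted line.

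**Figure D3:**
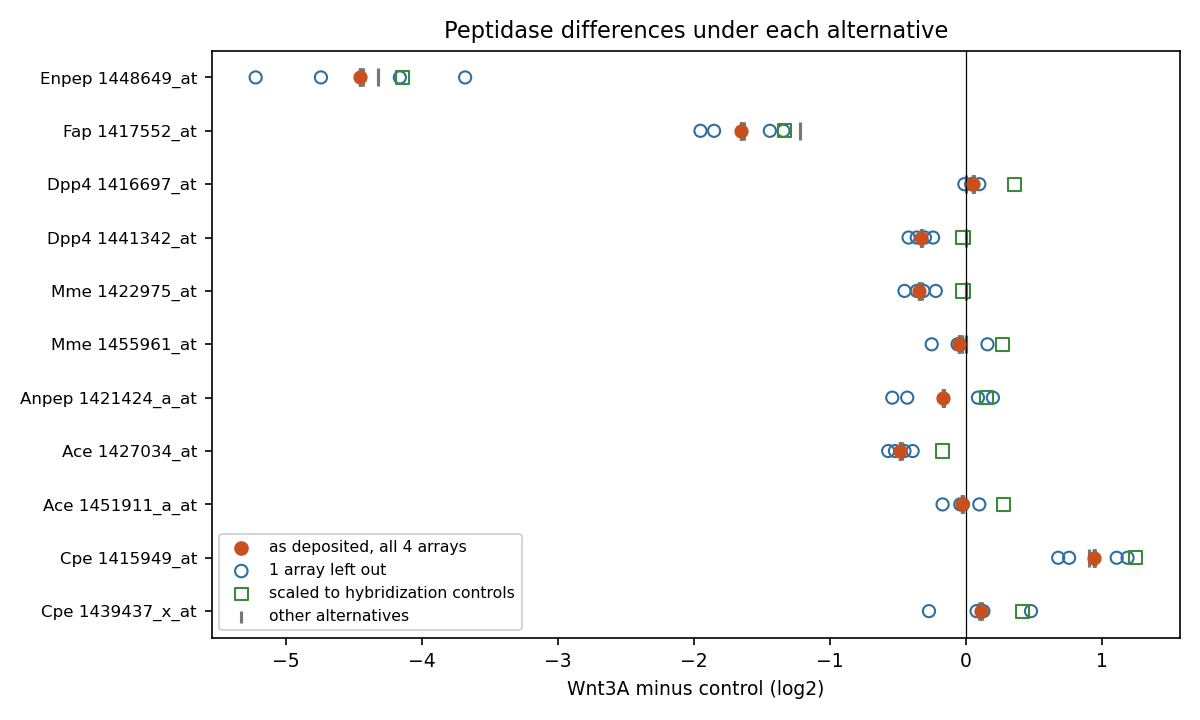
Difference, Wnt3A minus control (horizontal axis, log2), of the 11 probe sets as deposited (filled circles), with 1 array left out (open circles), scaled to hybridization controls (squares) and under the other alternatives (ticks). Enpep stays between -5.22 and -3.68 and Fap between -1.95 and -1.22, while the points of Anpep lie on both sides of 0.

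Cells of the suspension culture carried the markers of myoblasts. Des, the gene of the muscle intermediate filament desmin, read 8.73 and 8.92 in the controls, and 9.08 and 8.10 under Wnt3A. Of 11 myoblast markers 10 passed the filter, all but Pax7. Pax7 read 1.84 and 2.0 in the controls, and 2.15 and 2.15 under Wnt3A. Of the 10, 3 were lower and 1 higher by at least 2-fold without overlap, against 2.09% and 1.54% of all genes tested. These 4 are named after their values were seen. The adhesion gene Vcam1 read 8.47 and 7.65 in the controls, and 6.41 and 1.82 under Wnt3A. The myogenic factor Myod1 read 6.84 and 7.11 in the controls, and 6.32 and 3.62 under Wnt3A. Myog, the myogenin gene, read 8.0 and 9.27 against 7.42 and 6.66, and Myf5 was the higher one, at 6.57 and 5.98 against 7.77 and 7.65. On the linear scale the 11 summed to 2000 and 2810 on the control arrays and to 2330 and 1980 on the Wnt3A arrays. Ptprc, the leukocyte gene of CD45, was under the limit on all arrays, as were the endothelial genes Pecam1 and Cdh5 and the epithelial genes Epcam and Cdh1. Of 7 endothelial genes 2 were tested, Kdr and Cldn5, neither with overlap. Kdr read 2.64 and 2.23 in the controls, and 2.20 and 2.15 under Wnt3A. Cldn5 went the other way, with 2.29 and 2.01 against 2.37 and 2.33. Of 7 leukocyte genes on the array 4 were tested, among them Cd14, Csf1r and Cd68. With the brightest probe set of each, none of these overlapped between groups, as held for 34.4% of all genes tested. Cd14 read 7.54 and 7.40 in the controls, and 6.16 and 6.46 under Wnt3A. Csf1r read 3.26 and 3.39 against 3.53 and 5.19, and Cd68 read 2.82 and 2.78 against 3.03 and 3.13. The other Csf1r probe sets overlapped, at 2.98 and 3.18 against 2.67 and 6.07, and at 2.69 and 3.32 against 2.68 and 3.61. Of 7 epithelial genes 3 were tested, Krt19, Krt8 and Cdh16. Krt19 read 2.57 and 4.39 in the controls, and 3.27 and 5.61 under Wnt3A, so its groups overlapped. The brightest Krt8 probe set was lower without overlap, at 2.63 and 2.92 against 2.51 and 2.22. Another Krt8 probe set that passed the filter was higher (0.19). Cdh16 overlapped, at 3.06 and 3.34 against 2.98 and 3.43. Of 6 readout genes of canonical Wnt signalling, 5 were higher without overlap, against 14.7% of all genes tested. These were Axin2 (2.41), Nkd2 (2.62), Lef1 (1.46), Notum (0.83) and Apcdd1 (0.69). The groups of Sp5 overlapped (0.06), and its sign turned without control replicate 2. The median difference of the 6 was 1.14. Arrays correlated between r = 0.9466 and 0.9829 across tested probe sets, and the highest value was that of control replicate 1 with Wnt3A replicate 1, not of 2 arrays of a group.

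Adipocyte markers were lower with Wnt3A, as Enpep was. The linear signals of the 7 on the array summed to 2390 and 532 on control replicates 1 and 2, and to 173 and 65.5 on Wnt3A replicates 1 and 2, the same order of arrays as for Enpep. That order was not particular to this list, as Vcam1, Phex, Enpp3 and Cxcl12 had it too. Lpl, at 11.10 and 8.70 in the controls, and 6.54 and 4.92 under Wnt3A, carried most of the control sums, and without it the sums were 191, 116, 80.0 and 35.2. The order was not that of every marker, since Fabp4 read 2.26 and 2.66 on Wnt3A replicates 1 and 2. With the brightest probe set of each, all 4 genes that were tested were lower with no overlap, against 19.8% of all genes tested. These were Lpl, Cebpa, Pparg and Fabp4, with a median difference of -1.58. Another Fabp4 probe set that passed the filter overlapped, at 2.39 and 1.66 against 1.59 and 2.41 (difference -0.03). Another probe set of Lpl was also lower with no overlap (-4.29). The other 3 genes, Adipoq, Cidec and Lep, which mark mature fat cells, were under the limit on all arrays. Fibroblast and mesenchymal markers summed to 7050 on each control array and to 6040 and 4230 with Wnt3A. Col3a1, at 12.37 and 12.36 in the controls, and 12.11 and 11.73 under Wnt3A, carried most of each sum. Of the 6 tested, 4 were lower with no overlap, among them Pdgfra (-1.22) and Dcn (-1.18), against 19.8% of all genes tested. Groups overlapped for Col1a1, which was higher (0.54), and for Pdgfrb (-0.37). Lum, Dpt, Thy1 and Tcf21 were under the limit on all arrays. The part of either cell type in the values of Enpep and Fap was not tested. In bulk RNA, fewer cells of a type and less RNA per cell cannot be told apart.

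The relatives of the 7 genes were read with 1 probe set per gene, that of highest mean, among 9295 genes tested. Over all of these the median difference was -0.02. List values after scaling to hybridization controls carry the shift common to all probe sets, whose median became 0.312. Groups did not overlap for 34.4% of them, 19.8% lower and 14.7% higher, and 3.63% were also at least 2-fold apart, 2.09% lower and 1.54% higher. Ranges given with single genes are those over the alternatives. Of all, 0 passed an adjusted p of 0.05 in limma, the relatives included. Of 10 other aminopeptidases 4 lay above and 6 below 0, and their median of -0.05 was 0.27 after scaling to hybridization controls. None of the 10 was 2-fold apart. Erap1, which trims peptides for MHC class I, differed by -0.62 (SE 0.29, range -0.95 to -0.29), Xpnpep1, a cytosolic proline aminopeptidase, by 0.60 (SE 0.48) and Rnpep by -0.37 (SE 0.28, range -0.59 to -0.05). Xpnpep1 read 7.53 and 8.11 in the controls, and 7.80 and 9.03 under Wnt3A, and its difference was gone, at -0.01, without Wnt3A replicate 2.

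Of 8 other prolyl peptidases 4 were lower with no overlap, and the median was -0.20. After scaling to hybridization controls 4 lay above and 4 below 0, around 0.12. Dpp7, a lysosomal dipeptidyl peptidase, read 6.86 and 6.40 in the controls, and 6.38 and 5.15 under Wnt3A (difference -0.87, SE 0.47, range -1.48 to -0.25). Prcp, a lysosomal prolyl carboxypeptidase, differed by -0.74 (SE 0.31, range -1.01 to -0.43) and Prep, the cytosolic prolyl oligopeptidase, by -0.51 (SE 0.20, range -0.60 to -0.19). The 8 tested relatives of neprilysin and ACE had a median of -0.34, -0.03 after scaling to hybridization controls, with 6 lower. Phex, a neprilysin relative known from phosphate balance in bone, read 8.26 and 5.36 in the controls, and 5.12 and 2.29 under Wnt3A. Control replicate 2 and Wnt3A replicate 1 were thus close to each other, and the difference was -3.11 (SE 1.34), between -4.56 and -1.66 over the alternatives. Ece1, which makes active endothelin, differed by -0.58 (SE 0.27, range -0.82 to -0.26) and Nln, the oligopeptidase neurolysin, by 0.52 (SE 0.34, range 0.21 to 0.83).

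Among 9 tested carboxypeptidases and inhibitors other than Cpe, 8 lay below and 1 above 0, and their median of -0.23 was 0.08 after scaling to hybridization controls, and none was 2-fold apart. Aebp1, a secreted carboxypeptidase relative, read 10.02 and 10.09 in the controls, and 9.49 and 8.97 under Wnt3A (difference -0.82, SE 0.24, range -1.08 to -0.51), and its second probe set gave -0.84. Cpz, which carries a Wnt-binding domain, differed by -0.74 (SE 0.36, range -1.24 to -0.23) near the dim limit, and Naalad2 by -0.62 (SE 0.36, range -1.04 to -0.20). In the prohormone route that Cpe serves, 5 of 10 tested genes lay above and 5 below 0 around a median of 0.01. After scaling to hybridization controls 9 lay above and 1 below, around 0.33. Qpct, which forms the N-terminal pyroglutamate of peptides, differed by 1.82 (SE 0.84, range 0.88 to 2.76), with 6.72 and 4.83 in the controls, and 8.42 and 6.76 under Wnt3A. Furin, a proprotein convertase, read 6.23 and 6.24 in the controls, and 6.88 and 6.70 under Wnt3A (difference 0.56, SE 0.20, range 0.46 to 0.87), and Mbtps1, the site-1 protease, differed by -0.38 (SE 0.20, range -0.53 to -0.07).

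**Figure D4:**
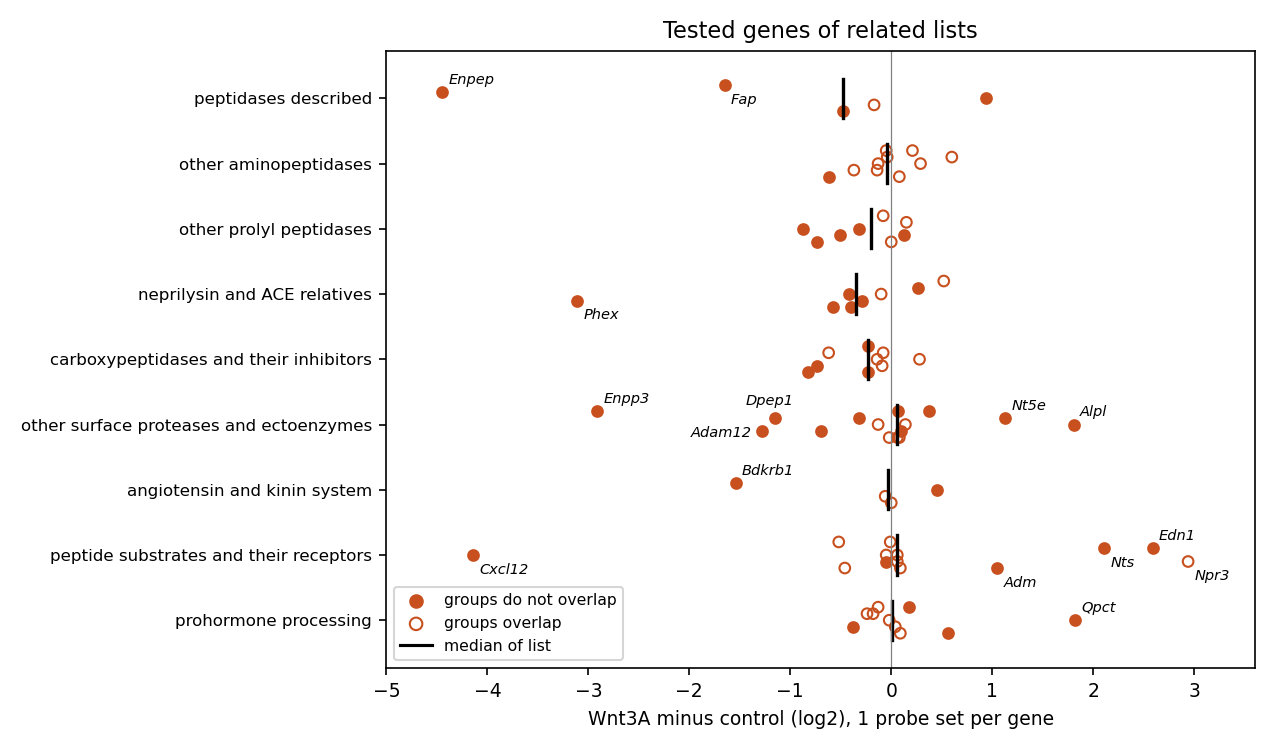
Difference, Wnt3A minus control (horizontal axis, log2), of each tested gene of the peptidases described and of 8 related lists (rows), with filled circles where the groups do not overlap, open circles where they do, and a black bar at the median of each list. List medians lie between -0.48, for the peptidases described, and 0.06, with Enpep, Cxcl12, Phex and Enpp3 farthest to the left.

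Other enzymes with an outward active site went both ways, 8 of 15 tested lying above and 7 below 0 around a median of 0.06. After scaling to hybridization controls 10 lay above and 5 below, around 0.38. At least 2-fold apart with no overlap were 2 higher and 3 lower genes. Enpp3, a nucleotide pyrophosphatase, read 7.16 and 6.76 in the controls, and 4.8 and 3.30 under Wnt3A (difference -2.91, SE 0.55, range -3.66 to -2.16). Alpl, tissue-nonspecific alkaline phosphatase, read 1.80 and 1.61 in the controls, and 3.15 and 3.88 under Wnt3A (difference 1.81, SE 0.29, range 1.44 to 2.18). Both its control arrays lay under the limit for dim probe sets. Alpl was thus tested only through its Wnt3A signal, and the size of its difference depends on signals near the background. Adam12, a metalloprotease of fusing myoblasts, differed by -1.28 (SE 0.58, range -1.96 to -0.60). The other two, named after their values were seen, were the dipeptidase gene Dpep1 (-1.15, SE 0.19) and the 5′-nucleotidase gene Nt5e (1.13, SE 0.28).

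Peptides and receptors around these enzymes were mostly dim. Of 11 genes of the angiotensin and kinin system on the array, 4 were tested. Agt, the precursor of the angiotensins that Ace and Enpep process, read 2.58 and 2.41 in the controls, and 2.41 and 2.58 under Wnt3A, so the groups overlapped. Bdkrb1, the kinin B1 receptor, read 5.61 and 5.53 in the controls, and 4.83 and 3.23 under Wnt3A (difference -1.54, SE 0.56, range -2.34 to -0.74). Atp6ap2, the prorenin receptor, differed by 0.45 (SE 0.19, range 0.32 to 0.77) and Agtrap by -0.06 (SE 0.21, range -0.17 to 0.26). Agtr2, an angiotensin II receptor, was at or below 1.40 on all arrays.

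Of 26 peptide substrates and their receptors on the array, 13 were tested, of which 7 lay above and 6 below 0 around a median of 0.06. After scaling to hybridization controls 10 lay above and 3 below, around 0.37. Cxcl12, a chemokine that Dpp4 can inactivate, read 8.38 and 5.36 in the controls, and 2.90 and 2.57 under Wnt3A (difference -4.14, SE 1.01, range -5.65 to -2.63). Edn1, the gene of endothelin, which Mme can degrade, read 2.92 and 3.17 in the controls, and 5.46 and 5.82 under Wnt3A (difference 2.59, SE 0.24, range 2.41 to 2.91). Npr3, a clearance receptor of natriuretic peptides, read 1.53 and 3.84 in the controls, and 3.79 and 7.47 under Wnt3A. Its groups overlapped, and the difference of 2.94 (SE 1.43) was 1.10 to 4.78 over the alternatives.

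Genes with a pattern like those of Enpep and Fap were sought by the Euclidean distance of the 4 signals, each probe set centred on its own mean, among named tested probe sets. Nearest to Enpep was Abca8a, a lipid transporter gene, at a distance of 0.452, which read 6.61 and 5.21 in the controls, and 2.27 and 1.48 under Wnt3A. Hgf, the gene of hepatocyte growth factor, followed at 0.83 and Cxcl5 at 0.897, with differences of -3.81 and -4.42. Nearest to Fap were Vdr, the vitamin D receptor gene, at 0.115, Sh3bp5 at 0.189 and Samhd1 at 0.192. Vdr read 5.49 and 6.0 in the controls, and 4.39 and 3.86 under Wnt3A. Another probe set of Samhd1 gave a difference of -0.38 where the near one gave -1.48. A distance over 4 arrays describes likeness on these arrays only.

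**Figure D5:**
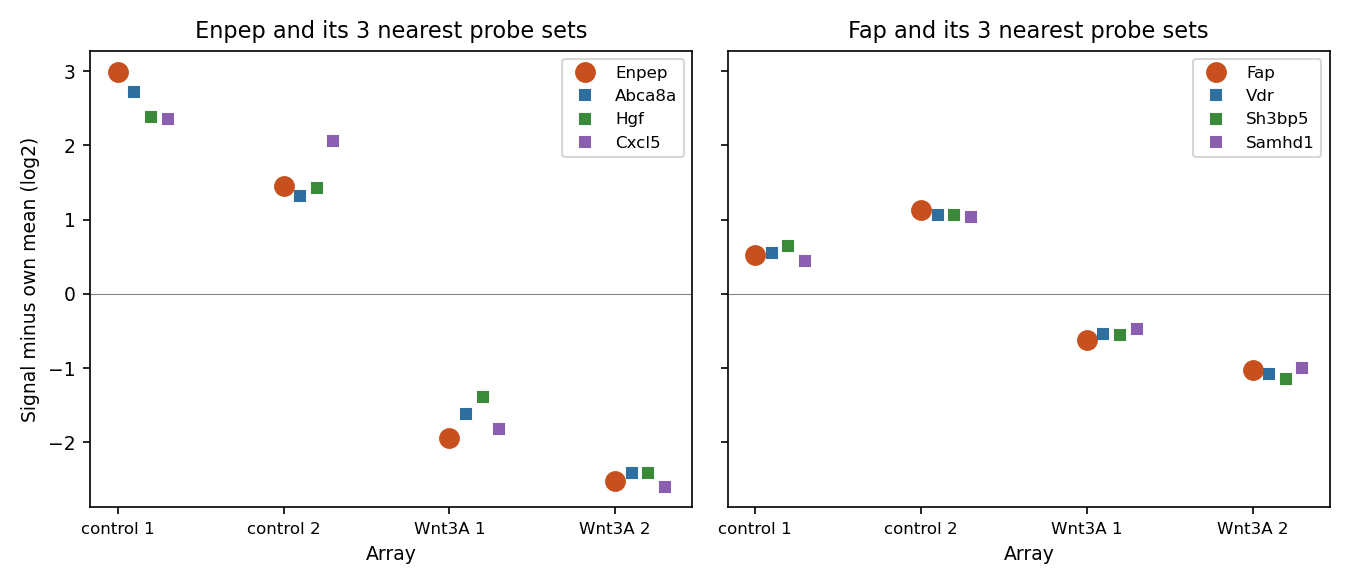
Signals of Enpep (left) and Fap (right) on each array with their 3 nearest probe sets, each minus its own mean (vertical axis, log2; the markers of an array are set side by side). Enpep and its neighbours are highest on control replicate 1, while Fap and its neighbours are highest on control replicate 2, and in both panels Wnt3A replicate 2 is lowest.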

How the data were processed

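Each probe set has 1 deposited value on each array, taken here as log2 signals from their range (0.503 to 13.2), since no base is stated. The submitters' processing notes name GCOS and PLIER. How the values were normalized or centred, and on what build, is not given in the sources used here. Column medians were between 4.15 and 4.22, so nothing was normalized again. Of 22690 probe sets, 64 array controls were left out. Platform annotation gave 20380 probe sets 1 symbol, 20351 of them matched by Entrez ID to RefSeq. Another 691 name several genes and 1555 are unlisted, and none of these was named.

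Probe sets in the lowest 25% by mean were not tested, which left 16969. Gene lists used the brightest probe set of a gene, with a limit of 2.18. Differences were fitted in R 4.3.3 with limma 3.58.1 (lmFit, eBayes with trend, two-sided, Benjamini-Hochberg over all tested features, threshold 0.05) with the group as the only term, and the procedure was tested on simulated data. The members and lists were chosen with earlier results of these data known. The text names every member probe set, the 3 genes per related list with the widest difference, and the 3 probe sets nearest to each member at least 2-fold apart without overlap. Alternatives were a replicate block, other scalings, filters, a floor, 1 probe set per gene, no trend, and each array left out.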

Additional observations from a re-analysis of the deposited data

How the results depend on the processing

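Over the 13 alternatives the difference lay between -5.22 and -3.68 for Enpep and between -1.95 and -1.22 for Fap. For Cpe probe set 1415949_at it lay between 0.68 and 1.25, and Ace probe set 1427034_at stayed below 0. A replicate block, other filters, 1 probe set per gene and no trend leave a difference as it is. Where groups do not overlap, as for these probe sets, neither a floor nor leaving 1 array out can turn the sign. Only the other scalings could have turned it, so the kept direction is no measure of robustness. The sign turned in 1 to 3 alternatives for Anpep, Ace 1451911_a_at, Cpe 1439437_x_at, Dpp4 1416697_at and Mme 1455961_at. Probe sets past an adjusted p of 0.05 in limma numbered 0 in the fit described, 83 with the replicate number as a block and 172 with scaling to hybridization controls. Deviations of same-numbered arrays correlated at 0.518 across probe sets, but the labels do not pair them. Probe sets at least 2-fold apart without overlap numbered 515, 337 with 1 probe set per gene, and 565 to 1536 with 1 array left out, where 1 array faces 2 and the rule is met more easily. Scaling to hybridization controls changed their split from 227 higher and 288 lower to 552 and 158. Member probe sets meeting the rule numbered 2, 1 with the dimmer 50% left out, which drops Fap, 2 to 3 with 1 array left out, and 3 with scaling to hybridization controls, where Cpe joined. With 1 array left out, the lone array of a group is assumed to vary like the others. The table holds no detection calls, so dim signals could be judged only by the limit.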

Other observations

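Enpep and Rgs5, which hold the 2 most negative differences of all tested probe sets, are both known as markers of pericytes, the mural cells of small vessels. Rgs5, a regulator of G protein signalling, read 5.04 and 8.68 in the controls, and 1.72 and 1.47 under Wnt3A (difference -5.27). Both its Wnt3A arrays lay under the limit for dim signals, so the order of the pair rests on signals near background. Its control arrays were in the opposite order to those of Enpep, and without control replicate 2 the Rgs5 difference was -3.45 while that of Enpep was -5.22. A list of 11 mural cell genes, these 2 included, was then drawn up after the values had been seen and was not tested as a list. Of the 10 that passed the filter, Rgs5 and Enpep were lower without overlap and 1, the proteoglycan gene Cspg4 (NG2), was higher. Over all genes tested 19.8% were lower and 14.7% higher without overlap, so nothing is read from these counts. Cspg4 read 5.21 and 6.34 in the controls, and 6.70 and 7.19 under Wnt3A. For the other 7, Anpep, Pdgfrb, Kcnj8, Mcam, Notch3, Des and Acta2, the groups overlapped, and their differences ran from -0.37 (Pdgfrb) to 0.10 (Kcnj8). Abcc9 was under the limit for dim genes.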
